A study of Mus musculus with 12 samples.

Results

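The genes described here encode the cytosolic translation initiation factors (eIF) and elongation factors (eEF) of mouse liver, with the proteins that bind or modify them. Members were all genes whose symbol in the deposited count table begins with Eif1 to Eif6, Eef1 or Eef2, leaving out the eIF2 kinases (Eif2ak genes) and pseudogenes, which gave 64 of 35498 genes. Their mRNA was measured by RNA-seq in livers of 6 male C57BL/6N mice aged 9 to 12 weeks, fasted overnight and sampled 3 hours after refeeding. From each mouse, 1 library was made from a postnuclear lysate (1 g of liver, cleared in 3 low-speed spins), and 1 from the fraction of wrappER-associated mitochondria (WAM) prepared from that lysate. WAM are mitochondria together with the rough endoplasmic reticulum (ER) wrapped around them, so the comparison of WAM with lysate asks which mRNAs travel with this organelle pair. The labels name no treatment or genetic change, and strain, sex, age range and feeding state are the same for both groups. The steps of the WAM preparation after the lysate are not given in full in the sources used here, and other membranes in the fraction were not measured.

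Translation starts when eIF1, eIF1A, eIF3 and the eIF2 complex with initiator tRNA assemble on the small ribosomal subunit, and the cap-binding eIF4F complex brings the mRNA to it. eIF2B recharges eIF2 with GTP, eIF5 and eIF5B complete the joining of the large subunit, and eEF1A, eEF1B and eEF2 then carry the ribosome from codon to codon. These factors are soluble proteins without signal peptides, made mostly on free ribosomes, whereas mRNAs for secreted and membrane proteins, which hepatocytes make in large amounts, are translated on the rough ER.

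Lysate libraries held 7400155 to 12023984 estimated counts, and WAM libraries 8344144 to 9712382. The 13 mRNAs encoded in mitochondrial DNA, which mark the organelle, made up 2.19% to 3.29% of lysate counts and 12.5% to 23.1% of WAM counts. The 6 hepatocyte markers examined (Alb, Apoa1, Ttr, Tat, Cyp2e1 and Hnf4a) were all detected and held 3.66% to 6.89% of lysate counts. Mouse 5 stood apart from the other 5 mice in markers of immune cells. Its 5 macrophage markers held 0.0487% of lysate counts and 0.0660% of WAM counts, while no other mouse exceeded 0.0210% and 0.0275%, and its 5 neutrophil markers held 0.00125% of lysate counts against at most 0.000214%. Its hepatocyte share of 3.66% was the lowest of the lysates, and results that rest on this mouse are given with and without it.

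Translation factor mRNAs, like the mRNAs of most tested genes, formed a smaller share of all mRNA in WAM than in lysate. The 64 members together held 1.32%, 1.38%, 1.38%, 1.36%, 1.48% and 1.41% of counts in the lysates of mice 1 to 6, and 0.450%, 0.652%, 0.552%, 0.602%, 0.670% and 0.773% in the WAM libraries of the same mice. The highest WAM share thus lay below the lowest lysate share. The mean was 1.39% ± 0.05 in lysate and 0.617% ± 0.110 in WAM (SD, n = 6 each), and within mice the lysate share was 1.82 to 2.94 times the WAM share. With the mitochondrially encoded mRNAs left out of the total, the members held 1.43% of lysate and 0.753% of WAM counts, still lower in 6 of 6 mice. This drop was close to that of the typical gene. Scaled to library totals, the median log2 fold change was -1.19 over all 11181 tested genes and -1.14 over the 60 tested members. Of all tested genes 8652 were then called lower and 503 higher. Markers of other cell types moved with the fraction. The 5 macrophage markers held 0.0128% to 0.0487% of lysate and 0.0185% to 0.0660% of WAM counts, and 5 of 5 were called higher in WAM relative to the typical gene (median log2 fold change 1.58). The same held for 4 of 4 sinusoidal endothelial markers (1.15; 0.00728% to 0.0113% of lysate and 0.00785% to 0.0110% of WAM counts) and for 3 of 4 stellate markers (1.17; 0.00859% to 0.0128% and 0.0101% to 0.0127%). Of the 6 hepatocyte markers 4 were called higher and 2 lower (1.30; WAM counts 3.84% to 8.51%). Of 3 erythroid markers 1 was called lower and none higher, and the neutrophil markers were too low to test. Over all tested genes 29.5% were called higher and 28.8% lower. The part of cell makeup in the result was not tested. Shares of a library depend on everything else in it, and these libraries cannot tell fewer cells of a type from less of an RNA per cell.

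Elongation factor 1A dominated the set. In TPM, an abundance scaled for transcript length and library, Eef1a1, which encodes the factor that delivers aminoacyl-tRNA, stood at 4304 ± 283 TPM in lysate, and it alone contributed 36.8% ± 2.0 of member counts in lysate and 35.7% ± 2.8 in WAM. Next in lysate TPM came Eif1 at 1102 ± 94, Eef2 at 799 ± 127 and Eif5a at 401 ± 19. Eif4g2 (317 ± 32 TPM) and Eef1b2 (316 ± 14 TPM) did not differ beyond their spread, and the same held for Eif5 (237 ± 34 TPM) and Eif4a1 (234 ± 30 TPM). The median lysate level was 56.4 TPM over the 60 tested members and 12.4 TPM over all 11181 tested genes. Members were thus measured at more than the typical depth, and the median coefficient of variation between mice was 9.07% in lysate and 13.4% in WAM, against 13.5% and 18.1% over all tested genes.

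Gene by gene, levels are given below as CPM, library-scaled counts after TMM scaling. This scaling sets each library to the bulk of its genes, and a fold change on this scale is relative to the typical gene rather than to the library total. On that scale translation factor mRNAs sat near the middle of the transcriptome. The median log2 fold change of WAM over lysate was -0.02 over members and -0.08 over all genes, with quartiles of -0.14 and 0.19 for members and -0.40 and 0.58 for all genes. Of the 60 tested members, 37 (61.7%) lay within 0.25 of 0 on the log2 scale, where 28.9% of all tested genes lay. No member changed 2-fold, whereas 16.6% of all tested genes were called with a change of that size or more. The whole range ran from -0.62 for Eif2b3 to 0.50 for Eef1g.

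**Figure D1:**
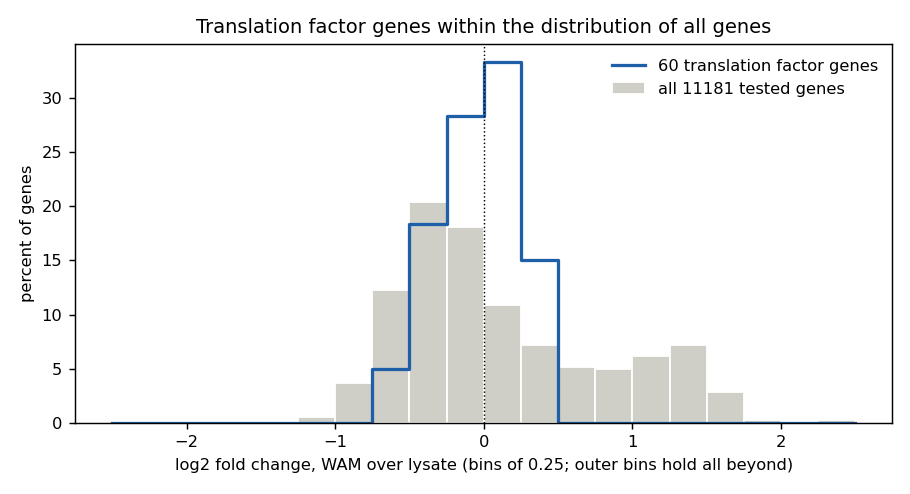
Percent of genes (y axis) by log2 fold change of WAM over lysate (x axis, bins of 0.25) for all 11181 tested genes (grey bars) and for 60 translation factor genes (blue line). All genes form a main group below 0 and a second group above 1. Of the members, 31 lie below 0, within the main group, and none lies beyond 0.50.

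With edgeR's quasi-likelihood test and a Benjamini-Hochberg adjusted p under 0.05 over all tested genes, 6 members were called higher in WAM (10% of 60; background over all tested genes 29.5%) and 14 were called lower (23.3%; background 28.8%). In all 33.3% of members were called, against 58.2% of all tested genes. A member that was not called is not thereby shown to be equal in both fractions. All 6 WAM values lay below all 6 lysate values for 8 members (background 14.2%) and above them for 1, Eef1g (background 20.3%). Fitting the mouse number as a block called the same 6 members and 6 more higher, 12 in all (background 33.5%), and the same 14 lower (background 36.2%). Without the lysate of mouse 2 or the WAM library of mouse 4, 3 members were called higher (background 3248 of 11264 and 3223 of 11349 genes). The split depends on what the libraries are scaled to. Scaling to library totals moved the median of all genes by -1.11 and called 0 members higher and 59 lower. Of all 11181 tested genes it called 503 higher and 8652 lower. The authors' coefficient for mitochondrial content moved the median by -3.27 and called 0 members higher and 60 lower, and 6 of all tested genes higher and 11152 lower. Relative to these shifted medians, 3 members were higher and 10 lower with library totals and 0 and 0 with the coefficient. Calls over all tested genes were not counted in these recentred fits, so these member counts have no background.

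Length bears on these calls too. Of the 60 tested members, 45 were shorter than the median gene, and all 6 members called higher were among these. Members shorter than the median gene had a median log2 fold change of 0.05 and the 15 longer ones -0.09, with a Spearman rho of -0.28 between length and log2 fold change across the 60 members (genes are not independent replicates). Once the trend of fold change on length over all genes was removed, 3 members were called higher and 25 lower (background 2692 and 3558 of 11181 genes). That fit moved the median of all genes by -0.10. Values given with the length trend removed are not relative to this moved median. Of the 6 higher calls Eef1g was kept, and of the 14 lower calls 13 were kept, Eif4ebp2 being lost. Newly called lower were Eif1, Eif1b, Eif2a, Eif3g, Eif3i, Eif3k, Eif3m, Eif4a1, Eif4e2, Eif5a, Eif6 and Eef1d. Newly called higher were Eif4g1 and Eif4g3.

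**Figure D2:**
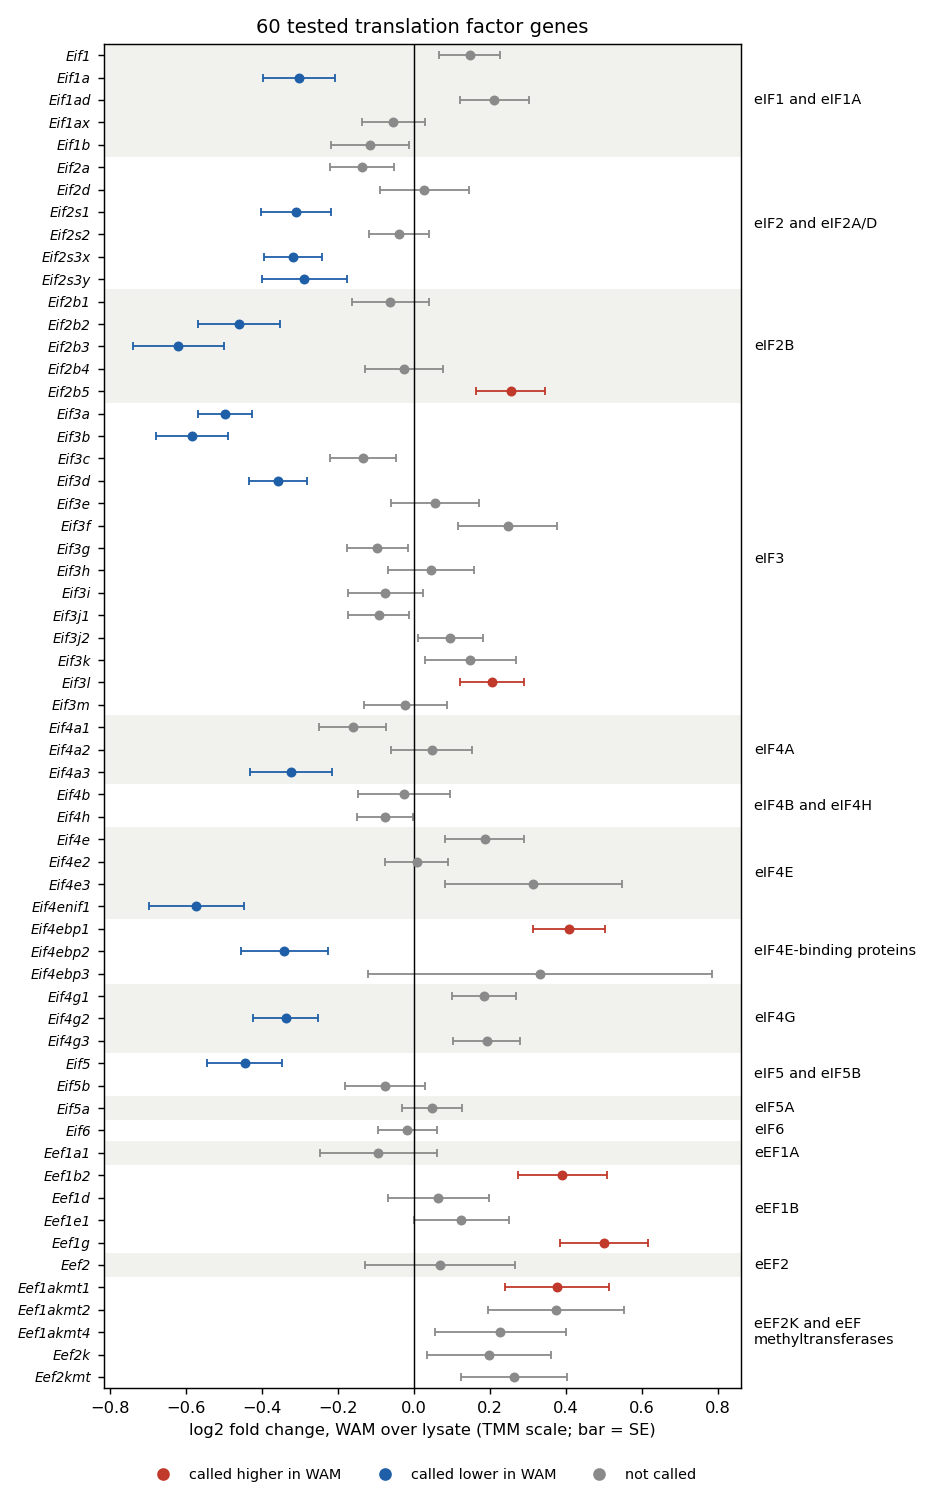
Log2 fold change of WAM over lysate (x axis; bars are SE, 6 libraries per fraction) for the 60 tested members, grouped by role (right). Called members are coloured; 14 lie to the left of 0 and 6 to the right, and Eif4ebp3, with the widest bar, was not called.

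Among the genes grouped as eIF1 and eIF1A, 1 of 5 was called (background 58.2%). Eif1a, which encodes an eIF1A, had lysate values of 79.4 to 103 CPM with a median of 88.9, and WAM values of 59.3 to 81.1 CPM with a median of 74.9. WAM was lower in 6 of 6 mice although the ranges overlapped, by -0.30 (SE 0.09, adjusted p = 0.0139 in edgeR's test). Eif1, the most abundant of the group, had 299 to 330 CPM (median 308) in lysate and 287 to 366 CPM (median 348) in WAM, and its log2 fold change of 0.15 was not called (adjusted p = 0.135). Eif1ax, an X-linked eIF1A gene, Eif1b and Eif1ad, which encodes an eIF1A-like protein, stood at -0.05, -0.11 and 0.21 and were not called. With the length trend removed, Eif1 and Eif1b were called lower (-0.40 and -0.53, adjusted p = 0.000962 and 0.000596). Eif1a and Eif1ax encode near-identical proteins, and how their reads were divided is uncertain.

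The eIF2 complex, which brings initiator tRNA to the ribosome, had 3 of its 4 subunit genes called lower (background 28.8%). Among these 3 are both the X-linked and the Y-linked gene for the gamma subunit. Eif2s3x, for the gamma subunit, had 88.0 to 97.4 CPM (median 91.9) in lysate and 65.4 to 83.8 CPM (median 75.8) in WAM. Its groups did not overlap, and it was 1.25 times as high in lysate (log2 fold change -0.32, SE 0.08, adjusted p = 0.00272). Its Y-linked copy Eif2s3y fell with it, from 25.4 ± 2.7 to 20.7 ± 3.6 CPM (-0.29, SE 0.11, adjusted p = 0.0394), with overlapping ranges and an uncertain division of reads between the copies. The call of Eif2s3y was lost at nearly the same fold change without mouse 5 (-0.28, adjusted p = 0.0602), in DESeq2 (-0.27, adjusted p = 0.0554) and with DESeq2 size factors (-0.27, adjusted p = 0.0515). Eif2s1, for the alpha subunit that the stress kinases phosphorylate, fell by 0.31 on the log2 scale (adjusted p = 0.0110) and was lower in 6 of 6 mice. Eif2s2, for the beta subunit, had 85.9 ± 5.3 CPM in lysate and 83.6 ± 7.6 CPM in WAM and was not called (-0.04, adjusted p = 0.690). Eif2a and Eif2d, alternative initiator tRNA factors outside the complex, were not called either (-0.14 and 0.03).

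The eIF2B genes, which encode the exchange factor for eIF2, moved in both directions. Eif2b3, for the gamma subunit, had 6.16 to 7.96 CPM (median 6.53) in lysate and 3.63 to 5.48 CPM (median 4.27) in WAM, so that every WAM library lay below every lysate. This was the lowest log2 fold change of the 60 (-0.62, SE 0.12, adjusted p = 0.000535; 1.54 times as high in lysate). Eif2b2, for the beta subunit, fell by 0.46 (SE 0.11, adjusted p = 0.00245) and was lower in 6 of 6 mice. Eif2b5, for the catalytic epsilon subunit, had 22.3 to 30.5 CPM (median 27.7) in lysate and 28.3 to 38.7 CPM (median 32.0) in WAM. It was higher in 6 of 6 mice with overlapping ranges (0.25, SE 0.09, adjusted p = 0.0280). Without mouse 5 the fold change was 0.26 and just missed the threshold (adjusted p = 0.0526). Eif2b1 and Eif2b4 were not called (-0.06 and -0.03).

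eIF3, the large scaffold that holds initiation factors on the small subunit, had 3 of 14 genes called lower, for subunits a, b and d, and 1 called higher (background 29.5% higher and 28.8% lower). Eif3a (chr19:60761117-60790658, minus strand) had 124 to 150 CPM (median 142) in lysate and 92.4 to 104 CPM (median 99.7) in WAM. The groups were separated by a wide gap, and Eif3a was 1.41 times as high in lysate (-0.50, SE 0.07, adjusted p = 4.45e-05). Eif3b (chr5:140419328-140443360, plus strand) had 70.0 to 94.9 CPM (median 80.2) in lysate and 48.1 to 63.5 CPM (median 53.8) in WAM. It too was without overlap (-0.58, SE 0.09, adjusted p = 0.000116), and within mice the log2 ratio ranged only from -0.67 to -0.46. Eif3d, for the subunit that can bind the cap, had 43.6 to 52.5 CPM (median 48.2) in lysate and 33.5 to 43.3 CPM (median 37.5) in WAM, a difference of -0.36 (SE 0.08, adjusted p = 0.00114) without overlap. Eif3l rose by 0.21 (SE 0.08, adjusted p = 0.0474) with overlapping ranges, and this call, the nearest to the threshold, was lost without mouse 5 (0.20, adjusted p = 0.102). It was also lost with the length trend removed (0.06, adjusted p = 0.549).

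The other 10 eIF3 genes were not called, and their log2 fold changes lay between -0.13 for Eif3c and 0.25 for Eif3f. Eif3g and Eif3i, whose products bind eIF3b directly in the same core module, stood at -0.10 and -0.08. With the length trend removed, Eif3a, Eif3b and Eif3d stayed called, and Eif3g (-0.47), Eif3i (-0.44), Eif3k (-0.39) and Eif3m (-0.35) were called lower too. Their adjusted p in edgeR's test was then 0.000240, 0.00198, 0.0147 and 0.0152. In that fit 3558 of all 11181 tested genes were called lower. Eif3h, for the h subunit and the most abundant of the group in TPM, had 72.6 ± 4.0 CPM in lysate and 74.9 ± 14.6 CPM in WAM. Eif3j1 and Eif3j2, near-identical genes for the loosely bound j subunit, stood at -0.09 and 0.10. Differences between subunits of the complex were not tested.

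**Figure D3:**
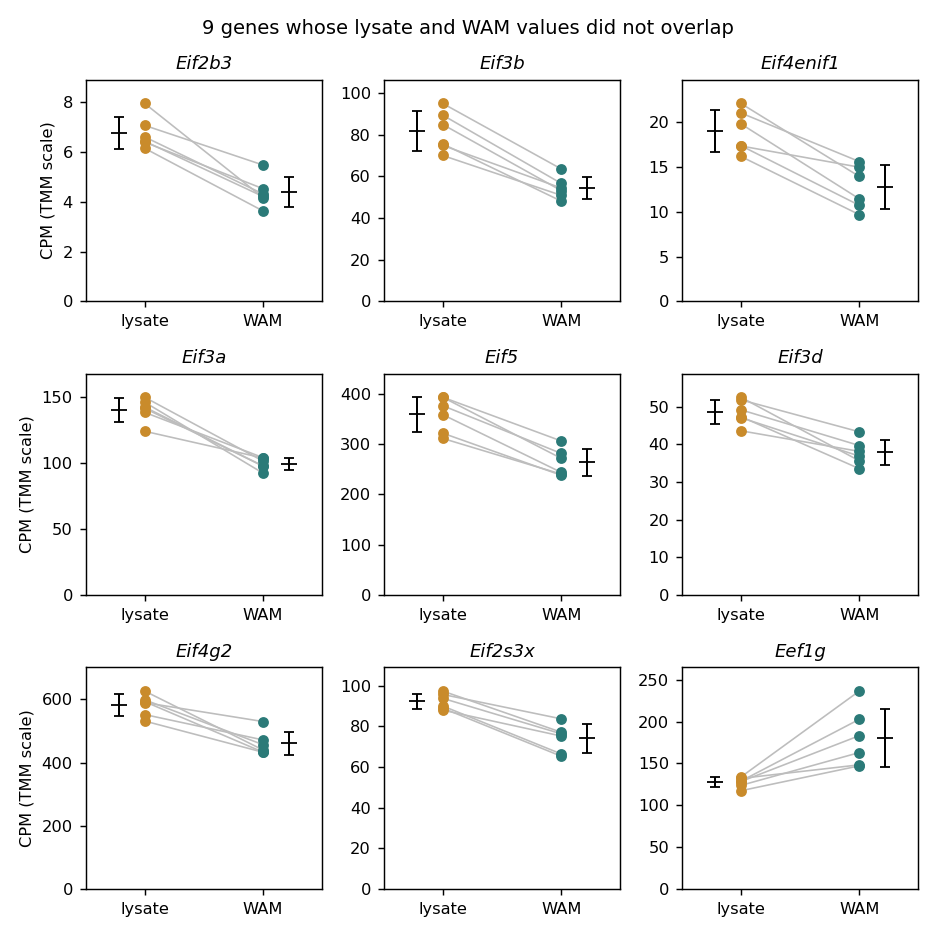
CPM on the TMM scale (y axis, from 0) in lysate and WAM for the 9 members whose groups did not overlap. Points are libraries, grey lines join the 2 libraries of a mouse, and black marks give mean and SD (n = 6); 8 genes are lower in WAM and Eef1g is higher.

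The eIF4F complex recognises the cap (eIF4E), holds it together with the rest of the mRNA (eIF4G) and unwinds the leader (eIF4A). Eif4g2, for a related scaffold that lacks the eIF4E-binding site and is also known as DAP5, had 531 to 626 CPM (median 591) in lysate and 432 to 530 CPM (median 448) in WAM. The highest WAM value lay just under the lowest lysate value, and Eif4g2 fell by 0.34 (SE 0.09, adjusted p = 0.00402). Eif4g1 and Eif4g3, the 2 scaffolds that do bind eIF4E, stood at 0.18 and 0.19. Neither was called (adjusted p = 0.0736 and 0.0759), but both were higher in WAM in 6 of 6 mice and both were called with the mouse as a block (adjusted p = 0.0346 and 0.0156).

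Of the helicase genes, Eif4a1 and Eif4a2 were not called (-0.16 and 0.05), but Eif4a1 was called lower with the length trend removed (-0.35, adjusted p = 0.00483). Eif4a3, whose product is a core protein of the exon junction complex rather than of eIF4F, fell from 25.1 ± 2.14 to 20.03 ± 3.57 CPM (-0.32, SE 0.11, adjusted p = 0.0199) and was lower in 6 of 6 mice. The helicase cofactors Eif4b and Eif4h were not called (-0.03 and -0.08). For the cap-binding proteins, Eif4e had 40.5 to 54.9 CPM (median 50.03) in lysate and 47.0 to 61.0 CPM (median 56.9) in WAM. It was higher in 6 of 6 mice but not called (0.19, adjusted p = 0.135), and was called with the block (adjusted p = 0.0167). Eif4e2, which encodes a cap-binding repressor, and Eif4e3 were not called (0.01 and 0.31), but Eif4e2 was called lower with the length trend removed (-0.22, adjusted p = 0.0340).

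Proteins that take eIF4E away from eIF4G behaved unlike each other. Eif4enif1, for the eIF4E transporter 4E-T found in processing bodies, had 16.2 to 22.1 CPM (median 18.6) in lysate and 9.69 to 15.6 CPM (median 12.7) in WAM, without overlap (-0.57, SE 0.13, adjusted p = 0.00145). Drg1 lies on the opposite strand over the whole Eif4enif1 gene, and the libraries were directional, but whether counting used strand is not given in the sources used here. Eif4ebp1, for the mTOR-regulated repressor 4E-BP1, had 17.1 to 24.01 CPM (median 19.6) in lysate and 23.8 to 29.9 CPM (median 27.3) in WAM. It rose in 6 of 6 mice with ranges that barely overlapped (0.41, SE 0.09, adjusted p = 0.00203), but its value was 0.09 and not called once the length trend was removed. Eif4ebp2 moved the other way, from 246 to 385 CPM (median 295) in lysate to 214 to 275 CPM (median 235) in WAM (-0.34, SE 0.12, adjusted p = 0.0207).

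Eif4ebp3 varied far more between mice than between fractions. In mice 1 to 6 it stood at 37.7, 12.8, 26.2, 69.5, 84.7 and 34.0 CPM in lysate and at 42.4, 18.3, 30.9, 95.5, 95.2 and 51.7 CPM in WAM. The same animals were high or low in both fractions, and WAM was higher in 6 of 6 mice, by 0.17 to 0.61 on the log2 scale. Its fold change of 0.33 (SE 0.45) was not called without the block (adjusted p = 0.546) and was called with it (0.35, adjusted p = 0.000439). Its coefficient of variation of 61.9% in lysate compares with a median of 9.07% over members, and another annotated gene overlaps it on the same strand.

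Of the late initiation factors, Eif5, for the protein that triggers GTP hydrolysis on eIF2, was lower in WAM. It had 311 to 393 CPM (median 367) in lysate and 238 to 306 CPM (median 258) in WAM, a narrow but complete separation of 1.36 times (-0.45, SE 0.10, adjusted p = 0.00141). Eif5b, for the GTPase of subunit joining, was not called (-0.08). Eif5a, for the hypusine-bearing factor that relieves stalled ribosomes, stood at 215 ± 11 CPM in lysate and 222 ± 18 CPM in WAM and was not called (0.05, adjusted p = 0.620). Eif6, for the factor that keeps the subunits apart, was not called (-0.02). With the length trend removed, Eif5a and Eif6 were called lower (-0.28 and -0.27, adjusted p = 0.0096 and 0.0101).

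None of the tested elongation factor genes was called lower in WAM (background 28.8%), and 2 of the 4 grouped as eEF1B were called higher (background 29.5%). The median over these 4 was 0.26, and -0.03 with the length trend removed. Eef1g (chr19:8967041-8978479, plus strand), for the gamma subunit of the eEF1A exchange complex, had 117, 132, 124, 129, 134 and 128 CPM in the lysates of mice 1 to 6 and 147, 148, 163, 203, 237 and 183 CPM in WAM. Every WAM library exceeded every lysate, by 1.41-fold on average (0.50, SE 0.11, adjusted p = 0.00204). Eef1b2, for the catalytic exchange subunit, had 92.0 to 122 CPM (median 100) in lysate and 103 to 171 CPM (median 138) in WAM. It was higher in 5 of 6 mice (0.39, SE 0.12, adjusted p = 0.0109), but with the length trend removed it turned to -0.11 and was not called. Eef1d, for the delta subunit, was not called (0.06) but was called lower with the length trend removed (-0.42, adjusted p = 0.0160). Not called either was Eef1e1 (0.12), which despite its name encodes a scaffold protein of the tRNA synthetase complex.

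Eef1a1 (chr9:78478449-78489151, minus strand) stood at 3128, 4071, 3438, 3294, 3428 and 3524 CPM in the lysates of mice 1 to 6 and at 2229, 2949, 2960, 3282, 4345 and 3807 CPM in WAM. The groups overlapped, with mice 5 and 6 higher in WAM and the other 4 lower, and Eef1a1 was not called (-0.09, SE 0.15, adjusted p = 0.620). Eef2, for the translocase, stood at 895 to 1366 CPM (median 1182) in lysate and 740 to 1953 CPM (median 1135) in WAM and was not called (0.07, SE 0.20, adjusted p = 0.779). Its WAM value of 1953 CPM was from mouse 5, and without that mouse the fold change was -0.06. Of the modifying enzymes, Eef1akmt1, for a lysine methyltransferase of eEF1A, rose from 4.14 ± 0.43 to 5.37 ± 0.91 CPM (0.38, SE 0.14, adjusted p = 0.0293), and this turned to -0.10 with the length trend removed. Eef2k, for the kinase that inhibits eEF2, and 3 other methyltransferase genes were not called (0.20 to 0.37).

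For a subset of members the WAM to lysate ratio varied with the mouse. TOP mRNAs begin with a terminal oligopyrimidine tract directly after the cap, through which mTOR and the protein LARP1 control their translation, and they include nearly all cytosolic ribosomal protein mRNAs and several factors. The 9 members listed here as TOP mRNAs from general knowledge were Eef1a1, Eef1b2, Eef1d, Eef1g, Eef2, Eif3e, Eif3f, Eif3h and Eif4b. The RefSeq sequence table (GRCm38.p6), matched by symbol, held 48 members, and 5 of these 9. The 30 bases around the annotated start, 15 on each side and read 5′ to 3′ on the gene's strand, are shown for these 5 and for 4 lower members outside the list, to let the letters at the start be compared with the behaviour below. Capitals mark the longest run of C and T.
Eef1a1 (chr9:78481710-78481739, minus): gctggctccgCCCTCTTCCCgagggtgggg
Eef1b2 (chr1:63176816-63176845, plus): tggacctgcagTTCCgccggaagtagccga
Eef2 (chr10:81176616-81176645, plus): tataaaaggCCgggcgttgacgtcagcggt
Eif3f (chr7:108934400-108934429, plus): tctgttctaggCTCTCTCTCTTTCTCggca
Eif4b (chr15:102073758-102073787, plus): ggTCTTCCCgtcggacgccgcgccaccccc
Eif3a (chr19:60790679-60790708, minus): cggggCTCgggcggcggcgctgccgccgcg
Eif3b (chr5:140419290-140419319, plus): ctagcggcgcgcggtgaCTTCTgggagtcg
Eif5 (chr12:111538086-111538115, plus): gagaTCgacgtgcatgcgagccaatgacaa
Eif2s3x (chrX:94212637-94212666, minus): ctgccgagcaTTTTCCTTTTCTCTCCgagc

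A run of at least 7 pyrimidines lay in 3 of the 5 windows of listed genes, in 9 of 43 windows of other members and in 18.6% of all 32851 windows of this length. The long runs of Eef1a1, Eif3f and Eif2s3x cover the annotated start, whereas that of Eif4b lies wholly before it. Eif2s3x, which is not on the list and fell in WAM, holds the longest run shown, of 16 letters. Annotated starts need not be the first transcribed base in liver, so a window without a run says only that these letters are not in it.

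For the 9 listed members the log2 ratio of WAM to lysate CPM within a mouse had a median of -0.19, -0.14, -0.08, 0.12, 0.49 and 0.29 in mice 1 to 6. The ratio was largest in mouse 5 for 9 of 9, against 6 of the 51 other tested members and 15.2% of all tested genes (background), and it was smallest in mouse 1 or mouse 2 for 8 of 9, against 42.6% of all tested genes. Eef1a1 ran from -0.49 in mouse 1 to 0.34 in mouse 5, and Eif3f from -0.11 to 0.62 in the same mice. The 51 other members had medians of -0.14, 0.01, -0.09, -0.09, -0.09 and 0.05, with no such spread.

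The order showed in the WAM libraries. WAM CPM was highest in mouse 5 for 9 of the 9 genes, against 24.2% of all tested genes. Lysate CPM was highest there for 4 of 9, against 2487 of all 11181 tested genes. Cytosolic ribosomal protein genes, the main class of TOP mRNAs, had the same mice at their extremes, with medians of 0.25, 0.26, 0.39, 0.67, 0.93 and 0.65 over 82 tested genes, and 71 of the 82 were largest in mouse 5. Between fractions 72 of these 82 were called higher and 0 lower (median 0.54), whereas of the 9 listed factors 2 were called higher, Eef1g and Eef1b2, and 0 lower (median 0.06). The background was 29.5% higher and 28.8% lower. With the length trend removed the 2 medians were -0.07 and -0.11. Mouse 5 is also the animal with the most macrophage and neutrophil marker counts, and its WAM library had the highest mitochondrial share (23.1%) and the lowest TMM factor (0.604, others 0.626 to 0.772). The part of these in the result was not tested. Without mouse 5, 4 members were called higher and 13 lower (background 3254 and 2940 of 11173 genes), and Eef1g and Eef1b2 were kept.

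**Figure D4:**
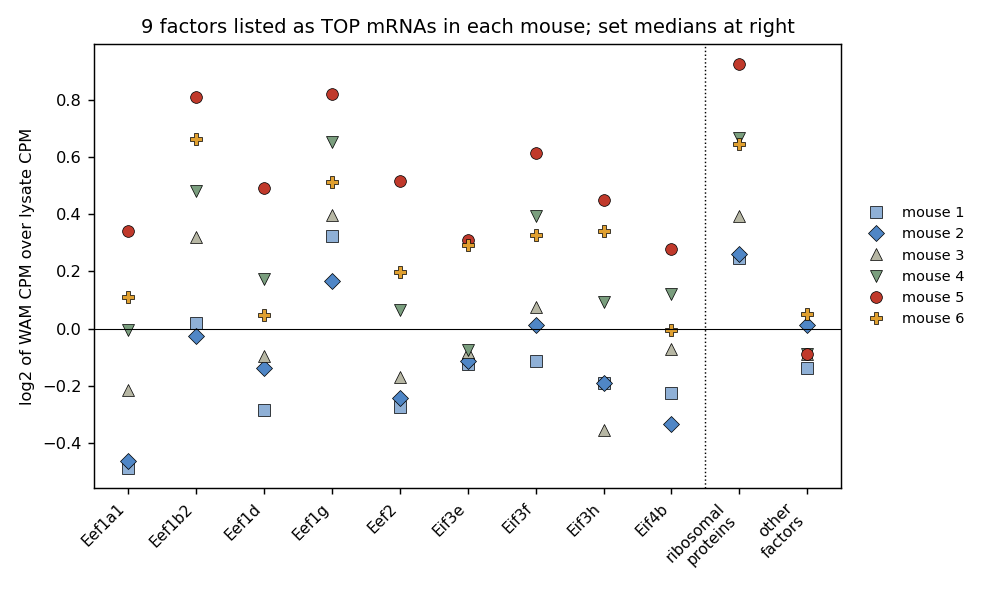
Log2 of WAM CPM over lysate CPM (y axis) in each of 6 mice for the 9 factors listed as TOP mRNAs, with the medians of 82 ribosomal protein genes and of 51 other tested factors at right. Mouse 5 (red circles) is highest for each of the 9 genes and for the ribosomal proteins, but not for the other factors.

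Ratios of related genes within a library do not depend on how libraries are scaled. Of 13 pairs, 11 had both genes tested. A two-sided exact permutation test over the 924 assignments of 12 libraries, adjusted over these 11 pairs, called 2. The count ratio of Eif4g1 to Eif4g2 was 0.569, 0.583, 0.570, 0.557, 0.486 and 0.585 in the lysates of mice 1 to 6 and 0.928, 0.787, 0.733, 0.848, 0.778 and 0.739 in WAM. Every WAM value exceeded every lysate value, by 0.52 on the log2 scale (exact p = 0.00216, the smallest these assignments allow; adjusted p = 0.0119). The ratio of Eif4ebp1 to Eif4ebp2 ranged from 0.0520 to 0.0894 in lysate and from 0.106 to 0.128 in WAM, again without overlap (0.74, exact p = 0.00216, adjusted p = 0.0119). A ratio does depend on length where the genes differ in it, and Eif4ebp1 and Eif4ebp2 were 0.452 and 2.34 times as long as the median gene. With the length trend removed, Eif4ebp1 stood at 0.09 and Eif4ebp2 at -0.12, neither of them called. Eif4g1 and Eif4g2, 1.81 and 1.53 times the median length, then stood at 0.33 and -0.24 and were both called (adjusted p = 0.00461 and 0.0270). With labels exchanged only within mice, the smallest possible p is 0.03125, and the adjusted p was 0.0688 for both, so neither was then called.

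Of the other 9 pairs none was called. Eif1 over Eif1b came nearest the threshold on the positive side (0.26, exact adjusted p = 0.155), and Eif1a over Eif1ax on the negative side (-0.24, exact adjusted p = 0.155, lower in 6 of 6 mice). With TPM in place of counts, Eif1 over Eif1b was called (0.45, exact adjusted p = 0.00794). The difference for Eif1a over Eif1ax was then 0.004 (exact adjusted p = 0.981). Eef1a1 over Eef2 was lower in WAM in 6 of 6 mice, by 0.14 on average, with an exact adjusted p of 0.289. Eif4a1 over Eif4a2 was also lower in 6 of 6 mice (-0.19, exact adjusted p = 0.214). The X-linked and Y-linked eIF2 gamma genes kept a ratio of 1.87 ± 0.16 on the log2 scale in lysate and 1.85 ± 0.23 in WAM (difference -0.02, exact adjusted p = 0.909).

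**Figure D5:**
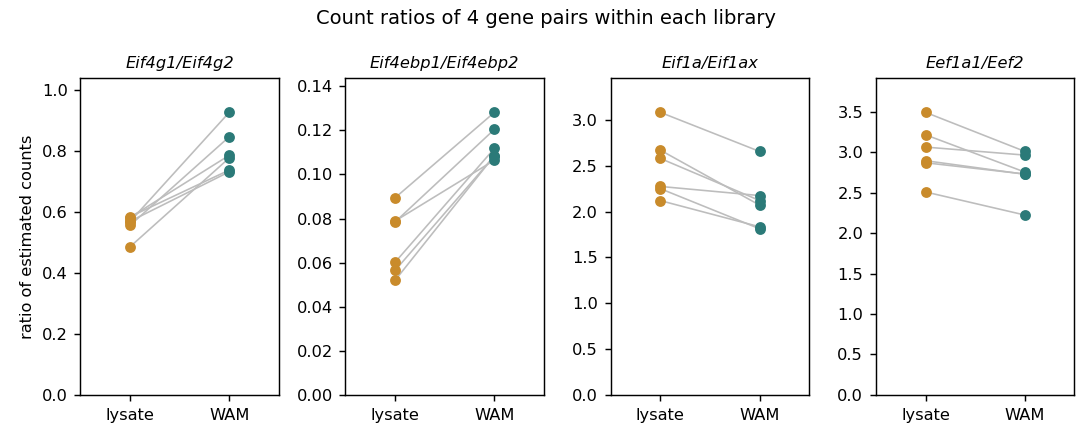
Ratio of estimated counts (y axis, from 0) of 4 gene pairs in each lysate and WAM library; grey lines join the libraries of a mouse (n = 6). The Eif4g1/Eif4g2 and Eif4ebp1/Eif4ebp2 ratios do not overlap between fractions, and the other 2 fall in 6 of 6 mice but overlap.

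Around the factors, other parts of the translation machinery showed larger differences for single genes. Among the eIF2 kinases and their opposing genes, 3 of 9 tested were called higher and 2 lower, near the shares of all tested genes (background 29.5% higher and 28.8% lower). Eif2ak3, for the kinase PERK that spans the ER membrane, had 10.9 to 19.7 CPM (median 14.1) in lysate and 20.3 to 40.6 CPM (median 27.6) in WAM, without overlap (1.05, SE 0.19, adjusted p = 0.000296). Eif2ak1 and Ppp1r15b, for the heme-regulated kinase and a subunit of the eIF2 phosphatase, rose by 0.69 and 0.66, while Eif2ak4 and Eif2ak2, for the kinases GCN2 and PKR, fell by 0.98 and 0.51. Atf4, for the transcription factor translated under eIF2 phosphorylation and the most abundant of the list, was not called (-0.09).

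Of the termination and recycling factors, 5 of 7 were called lower and 1 higher (background 29.5% higher and 28.8% lower). Gspt1, for the release factor eRF3a, had 92.8 to 103 CPM in lysate and 52.2 to 68.0 CPM in WAM, without overlap (-0.70, SE 0.07, adjusted p = 2.19e-06), and Abce1, for the recycling ATPase, fell by 0.55. Denr, for a reinitiation and recycling factor, was the one that rose (0.36). The selenocysteine decoding genes had 4 of 6 lower, led by Sepsecs (-0.49), and 1 higher against the same background, while Sephs2, for the enzyme that makes selenophosphate, was not called (-0.08). Of genes for mTOR complex 1 and its regulators, 5 of 10 were lower and 1 higher, also against 28.8% and 29.5%, with Deptor, for an inhibitor of mTOR, at -0.64 and Mtor itself at -0.55.

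Nuclear genes for the translation factors used inside mitochondria had 3 of 10 lower and 1 higher, near or under the shares of all tested genes (background 29.5% higher and 28.8% lower). Mtrf1l, for a mitochondrial release factor, fell by 0.75, and Tufm, for the mitochondrial counterpart of eEF1A, was not called (-0.24, adjusted p = 0.0894). The poly(A)-binding proteins and initiation regulators had 4 of 15 lower, led by Gigyf2 (-0.56), and 3 higher, both under that background, with Pabpc1 not called (-0.17). In the list for making hypusine and diphthamide, the modified residues of eIF5A and eEF2, 2 of 9 were higher and 0 lower, again under it. These were Dph1, at 9.26 ± 1.31 CPM in lysate and 14.5 ± 1.2 CPM in WAM (0.64, SE 0.11, adjusted p = 0.000164), and Dohh (0.48), while Dph3 was not called (0.12).

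In the authors' deposited table of enrichment, 15 members appear among 1160 genes. These are the 15 members with the highest mean lysate TPM, and the other members have no value there. Values in that table are percents of lysate TPM recovered in WAM after division by a coefficient for mitochondrial content. In the authors' deposited table the members ran from 6.08% for Eif5 to 10.8% for Eef1g, with a median of 8.02% against 15.4% over all its genes. Of the genes in the authors' deposited table, 31.0% reached 20%, the minimum of the authors' top list, and none of these 15 members did.

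The 4 members that were not tested were the tissue-restricted forms Eef1a2, Eif5a2 and Eif4e1b and the methyltransferase gene Eef1akmt3. Summed over the 12 libraries they had 23, 37, 10 and 18 counts, too few to compare fractions at this depth.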

How the data were processed

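The authors deposited unnormalised estimated counts, 1 value per library and Ensembl gene, per the file headers. Per the submitters' processing notes the tools were kallisto 0.44.0, fastp 0.12.4, R 3.5.0 and DESeq2 1.20.0, whose roles are not stated there. Genome build and strand setting were not given in the sources used here. Values in TPM from the authors, scaled by length and depth, come from the deposited complete list. The authors' enrichment is a ratio in percent, WAM TPM over lysate TPM after division by the coefficient for mitochondrial content, per the file headers. Another 60 per-sample columns were left unused.

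The 48042 lines were reduced to 1 per gene, leaving 35498, and estimated counts were rounded (32.6% of non-zero values were not whole). Counts were fitted with edgeR 4.0.16 (quasi-likelihood F test, TMM, filterByExpr; R 4.3.3), which tested 11181 genes, with fraction as the only term, which ignores that each mouse gave a library of both fractions. Each SE belongs to its log2 fold change. It was tested on simulated data with known changes. Column names give a mouse and a fraction. Deviations from fraction means had r of 0.557 to 0.861 between the libraries of a mouse and at most 0.527 otherwise, and 6 of 6 WAM libraries correlated best with their own lysate. Equal numbers were therefore read as pairs, and a fit blocked on mouse was run too. Fits with limma 3.58.1 on log2(TPM + 1) and with DESeq2 1.42.0 were alternatives. No 2 libraries of a fraction agreed within sampling noise (chi-square per degree of freedom at least 11.3).

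Named members were the 6 highest and 6 lowest called log2 fold changes, the most abundant member of each role and both genes of each tested pair, 38 in all. Of the other lists, the most abundant gene and the largest called change were named. Further members are named to complete their complex, after their values were seen, as were Abce1, Denr, Mtor, Dohh, Eif2ak1, Eif2ak2, Eif2ak4 and Ppp1r15b. Members and lists were chosen with earlier results of these data known. Gene positions are from GENCODE M21 (GRCm38) and sequences from RefSeq (GRCm38.p6), which need not be the authors' build.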

Additional observations from a re-analysis of the deposited data

Results flagged for a closer look

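A library was picked out when its gap to the nearest of the 5 others was above Dixon's critical share of the range for a group of 6. Of 110 groups examined 12 were picked out, and chance picks out about 1 in 20. In mouse 5 these were the WAM level of Eif4b (312 CPM, the highest), the lysate level of Eif1b (15.7 CPM, the highest), the lysate ratios Eif4g1/Eif4g2 (0.486) and Eif1/Eif1b (19.02) and the WAM ratio Eef1a1/Eef2 (2.23), each of the 3 ratios being the lowest of its group. In mouse 2 they were the WAM levels of Eif4e2 (44.97 CPM) and Eif4e3 (5.00 CPM) and the share of Eef1a1 in lysate member counts (40.6%), all highest. In mouse 6 the WAM levels of Eif1ax (42.9 CPM) and Eif4a1 (199 CPM) were highest. Eif1 was highest in the lysate of mouse 4 (330 CPM) and lowest in the WAM library of mouse 1 (287 CPM). The Eif4b and Eef1a1/Eef2 values involve factors listed as TOP mRNAs. Causes were not tested.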

How the results depend on the processing

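Numbers of members called higher and lower (6 and 14 as reported) were 7 and 13 with DESeq2 size factors, 6 and 14 without mitochondrially encoded genes and 8 and 13 in DESeq2, and 4 and 13 without mouse 5, an alternative added after seeing the data. Of all tested genes, DESeq2 size factors called 3375 higher and 3084 lower, and DESeq2 called 3401 and 3033. Without mitochondrially encoded genes these were 3289 and 3207, and without mouse 5 they were 3254 and 2940. The higher count of members moved to 3 with no filter on low counts (background 3259 of 19449 genes). It moved to 12 with the replicate block (background 33.5%), where the lower count was 14 (background 36.2%). With 1 library left out the higher count was 3 to 8, falling to 3 without lysate 2 or WAM 4. Removing the length trend gave 3 and 25 (background 2692 and 3558 of 11181 genes). Library totals gave 0 and 59, and limma on TPM plus 0.1, 1 or 5 gave 0 and 60, as did the coefficient of the authors, and these settings move the median of all genes by -0.65 to -3.27. Of all 11181 tested genes, 8652 were lower with library totals and 11152 with the coefficient. With TPM plus 0.1, 1 and 5 these were 9569, 9570 and 9565. Relative to the moved medians, TPM plus 0.1, 1 and 5 gave 4 and 10, 1 and 30, and 1 and 50 members. Calls over all tested genes were not counted after recentring, so these counts cannot be set against a background. The median of members minus that of all genes (0.06) turned to -0.28 with TPM plus 1, -0.55 with TPM plus 5 and -0.02 without the length trend. A pseudocount shrinks low genes most, and members are more abundant than most. The member share of counts moved to 0.753% in WAM without mitochondrially encoded genes, and to 1.07% in lysate and 0.374% in WAM as percent of TPM. The number of pair ratios called (2) was 0 under exchange within mice, the replicate block, where 5 of 11 pairs reached the smallest possible p of 0.03125 but none passed adjustment (0.0688), 3 with TPM, and 2 or 3 with 1 library left out.

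For the TPM settings, library totals and the coefficient, values here are relative to the moved median of all genes. Removing the length trend moved that median by -0.10, and its values were not recentred. Turns to values within 0.10 of 0 there are no larger than this shift. Of the 38 named members, these turned direction on the log2 scale. With the length trend removed they were Eef1akmt1 (-0.098), Eef1b2 (-0.11), Eif1 (-0.40), Eif1ax (0.051), Eif3h (-0.26), Eif3j1 (0.11), Eif4a2 (-0.14), Eif4b (0.070), Eif4e (-0.023), Eif4e2 (-0.22), Eif4ebp3 (-0.22) and Eif5a (-0.28), of which Eif1, Eif4e2 and Eif5a were called. Among the other 22 tested members they were Eef1akmt2 (-0.054), Eef1akmt4 (-0.13), Eef1d (-0.42), Eif2d (-0.10), Eif3e (-0.19), Eif3k (-0.39) and Eif5b (0.16), of which Eef1d and Eif3k were called. With TPM plus 0.1 these were Eef2 (-0.063), Eif2b4 (0.19), Eif3h (-0.064), Eif4a2 (-0.12), Eif4e (-0.12), Eif4e2 (-0.028), Eif5a (-0.057) and Eif6 (0.31). With TPM plus 1 these were Eef1b2 (-0.0083), Eef2 (-0.39), Eif1 (-0.076), Eif3h (-0.37), Eif3j2 (-0.25), Eif3l (-0.17), Eif4a2 (-0.43), Eif4e (-0.41), Eif4e2 (-0.31), Eif4ebp3 (-0.041), Eif4g1 (-0.069), Eif4g3 (-0.13), Eif5a (-0.38) and Eif6 (0.0083). With TPM plus 5 these were Eef1akmt1 (-0.058), Eef1b2 (-0.47), Eef1g (-0.35), Eef2 (-0.86), Eif1 (-0.56), Eif2b5 (-0.11), Eif3h (-0.78), Eif3j2 (-0.52), Eif3l (-0.53), Eif4a2 (-0.85), Eif4e (-0.75), Eif4e2 (-0.64), Eif4ebp1 (-0.16), Eif4ebp3 (-0.47), Eif4g1 (-0.51), Eif4g3 (-0.26) and Eif5a (-0.84). Eif6 turned to 0.00088 in DESeq2 and 0.0025 with its size factors, Eif4e2 to -0.020 with no filter, and Eef2 (-0.063), Eif3h (-0.046) and Eif6 (0.017) without mouse 5. With 1 library left out, Eef2 ranged from -0.12 to 0.17, Eif2b4 from -0.075 to 0.034, Eif3h from -0.040 to 0.10, Eif4a2 from -0.016 to 0.10, Eif4b from -0.13 to 0.024, Eif4e2 from -0.046 to 0.035 and Eif6 from -0.044 to 0.043. Calls lost with 1 library left out concern Eif3l, Eif2s3y, Eef1akmt1 and Eif2b5 only. Of the 20 calls, those of Eef1g, Eef1b2 and Eif3l became calls of the other direction with TPM plus 5. The block changed no called member's call and added 6. The cause of these turns was not tested beyond what each setting's construction shows.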
